A study of Mus musculus with 6 samples.

Results

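Transcripts of 10 genes used to recognise type 1 conventional dendritic cells (cDC1), or linked to the work these cells do with antigen, were followed in mouse bone marrow cultures grown with and without midkine. The 10 genes, chosen by symbol, were Xcr1, Clec9a, Snx22, Wdfy4, Cadm1, Itgae, Naaa, Ppt1, Gcsam and Cd24a. All 10 had a row among the 15443 gene symbols of the table, and all 10 were among the 13543 genes that passed the filter on low values (a mean of at least 5 normalized counts over the 6 libraries). The cells came from the marrow of C57BL/6J mice, a standard inbred strain, of wild-type genotype. They spent 3 days in FLT3LG (50 ng/ml), a cytokine under which progenitors turn into dendritic cells (DCs). The 3 control libraries (replicates 1, 2 and 4) had FLT3LG alone, and the 3 midkine libraries (replicates 3, 4 and 5) had FLT3LG and human recombinant midkine, a heparin-binding growth factor, at 10 ng/ml. FLT3LG was thus common to both groups. The labels give neither the age of the mice nor a sort of the cells, and do not say whether replicates were separate mice or cultures. The p-values therefore reflect the spread among these libraries alone, which may be technical. The comparison addressed how midkine alters cells grown under FLT3LG.

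cDC1 are the dendritic cells that take up dead cells and present the antigens they carry on MHC class I to CD8 T cells, a process called cross-presentation. They depend on the transcription factors IRF8 and BATF3, and mature cells carry the chemokine receptor XCR1 and the dead-cell receptor CLEC9A at their surface. In marrow cultures with FLT3LG they arise together with type 2 conventional DCs and plasmacytoid DCs. Of the 10 genes, Xcr1, Clec9a, Cadm1, Itgae and Cd24a encode surface proteins, while Wdfy4, Snx22, Naaa, Ppt1 and Gcsam encode proteins of the cell interior. Several of the 10 are not restricted to cDC1: Cd24a is also made by B cell precursors, granulocytes and red cell precursors, Cadm1 by mast cells and Itgae by T cells.

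The 6 libraries held 5985684 to 7233960 reads. They were made with a 3′ end kit that gives 1 fragment per transcript, so values are not divided by gene length. Midkine 5 stood apart: its Pearson correlations across genes with the other libraries were 0.9205 to 0.941 (log2 scale), and mitochondrial ribosomal RNA took 0.377% of its reads against 4.12 to 6.16% in the other 5 libraries. Results are therefore also given without that library. In unsorted cells, fewer cells of a type and less RNA per cell cannot be told apart.

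**Figure D1:**
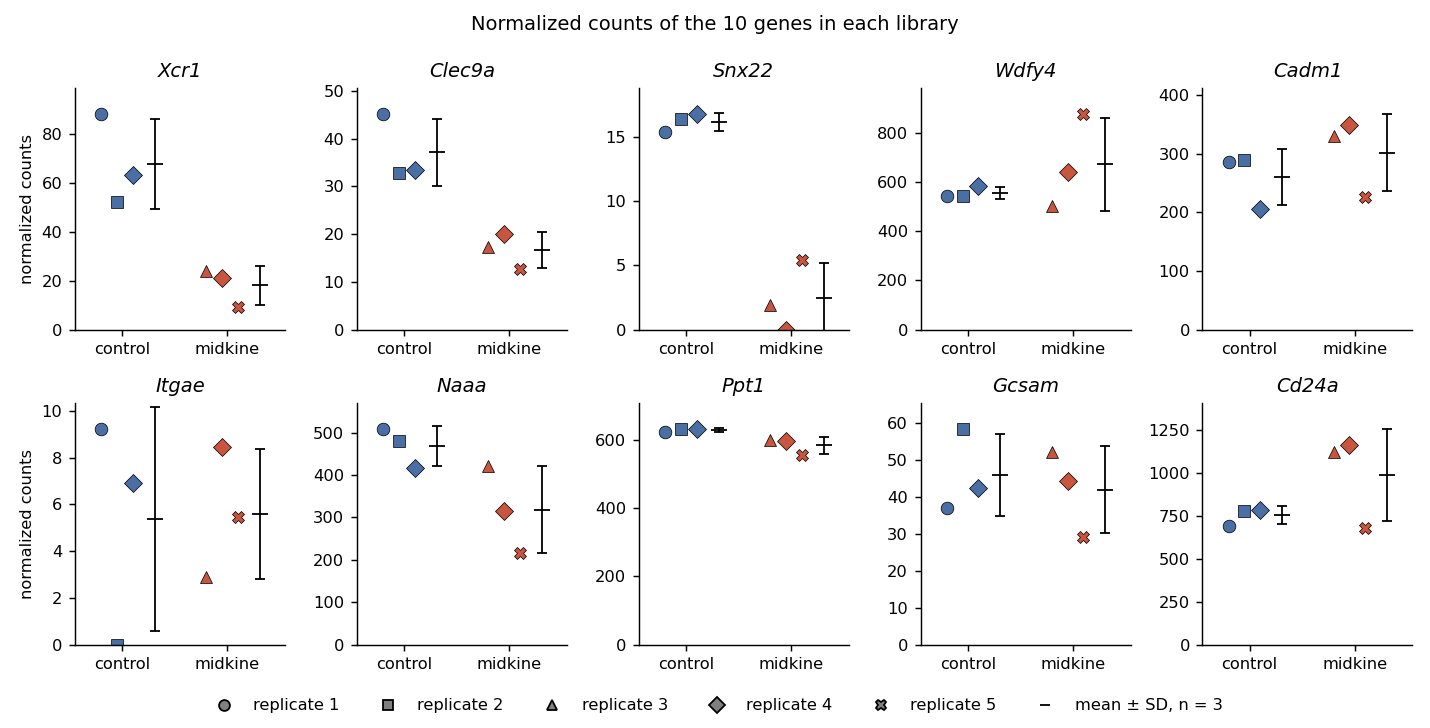
Normalized counts (vertical axes, linear, from 0) of the 10 genes in each library, with control libraries in blue and midkine libraries in red, a marker shape per replicate number, and a black dash with bars for the mean and SD of 3 libraries. Xcr1, Clec9a and Snx22 lie lower in each midkine library than in any control, with Snx22 at 0 in midkine 4, whereas Cd24a is high in midkine 3 and 4 (1122 and 1158) and not in midkine 5 (679).

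Transcripts of the receptors that mark cDC1 were less abundant in every library with midkine. Xcr1, the receptor for the chemokine XCL1 made by activated CD8 T and NK cells, averaged 67.8 ± 18.5 normalized counts without midkine and 18.1 ± 7.98 with it (values after ± are SDs over 3 libraries unless named SE), a 3.74-fold difference. Clec9a, the receptor through which cDC1 sense exposed actin of dead cells, had 37.1 ± 6.94 and 16.7 ± 3.72, a 2.22-fold difference. In limma, neither passed the threshold of an adjusted p of 0.05 with all 6 libraries, and both passed it without midkine 5. DESeq2 differed: it called Xcr1 with all 6 libraries and did not call Clec9a with or without midkine 5.

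By library, Xcr1 had 88.2, 52.2 and 63.1 normalized counts in control 1, 2 and 4, against 24.2, 21.1 and 9.08 in midkine 3, 4 and 5. The groups did not overlap, and the lowest value was in midkine 5. The log2 fold change, midkine minus control on the log2(normalized count + 1) scale, was −1.92 ± 0.385 (SE; 95% interval −2.80 to −1.04; limma, adjusted p = 0.0788 over 13543 genes). It was −1.51 without midkine 5 (limma, adjusted p = 0.000440). On recovered whole reads, edgeR gave an adjusted p of 0.0806 and DESeq2 0.000900 with all 6 libraries, and over 19 other settings the adjusted p ranged from 9.44e-06 to 0.372. The counts behind these values were 201 reads in the 3 control and 55 in the 3 midkine libraries, a ratio of 0.263 after scaling (exact 95% interval 0.192 to 0.356, counting error only). Its position in GRCm38 is chromosome 9, 123852315 to 123862029 (minus strand).

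Clec9a had 45.1, 32.7 and 33.5 normalized counts in the controls, against 17.4, 20.1 and 12.7 in midkine 3, 4 and 5. Again the groups did not overlap and midkine 5 was lowest. On the log2 scale the difference was −1.11 ± 0.279 (SE; 95% interval −1.75 to −0.47; limma, adjusted p = 0.109), and −0.94 without midkine 5 (limma, adjusted p = 0.0210). The adjusted p ranged from 0.00204 to 0.410 over the other settings, with 0.0615 from DESeq2 with all 6 libraries and 0.101 without midkine 5. Clec9a lies on chromosome 6, 129408862 to 129424763, on the plus strand, within a cluster of C-type lectin genes. An annotated transcript of Clec1b shares exon sequence with it on the same strand. Clec1b had 206 ± 23.9 normalized counts without midkine and 248 ± 82.3 with it, so it did not share the lower values of Clec9a.

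Snx22, a sorting nexin of the endosomal system that is used as a cDC1 marker in mice, was the lowest of the 3 in counts. It had 15.4, 16.4 and 16.8 normalized counts in the controls, or 15, 16 and 17 reads, and 1.93, 0 and 5.45 in midkine 3, 4 and 5, or 2, 0 and 6 reads. The controls were close to each other and each midkine library was below them. A count of 0 in midkine 4 allows up to 3.17 normalized counts (3 reads). The ratio of the summed reads, 8 against 48, was 0.160 after scaling (exact 95% interval 0.0655 to 0.342, counting error only). Its fitted log2 fold change was −2.69 ± 0.664 (SE; limma, adjusted p = 0.106), −1.57 with a pseudocount of 5 and −3.32 without midkine 5 (limma, adjusted p = 0.000542). Over the other settings its adjusted p ranged from 3.14e-06 to 0.382. Snx22 is found at chromosome 9, 66065176 to 66069719 (minus strand), and its exons overlap those of Ppib, a gene on the opposite strand. Ppib had 311 ± 6.51 normalized counts without midkine and 457 ± 141 with it, the opposite direction to Snx22. The strand setting of the counting is not given in the sources used here.

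The sequences before the starts of these 3 genes are shown because these genes had the lowest log2 fold changes of the 10. Each line holds the 250 bases before the RefSeq start and the first 10 from it (GRCm38.p6), 5′ to 3′ on the strand of the gene. Xcr1 is from chr9:123862020-123862279 on the minus strand, Clec9a from chr6:129408612-129408871 on the plus strand and Snx22 from chr9:66069722-66069981 on the minus strand. Capitals mark a match to a searched motif.
Xcr1: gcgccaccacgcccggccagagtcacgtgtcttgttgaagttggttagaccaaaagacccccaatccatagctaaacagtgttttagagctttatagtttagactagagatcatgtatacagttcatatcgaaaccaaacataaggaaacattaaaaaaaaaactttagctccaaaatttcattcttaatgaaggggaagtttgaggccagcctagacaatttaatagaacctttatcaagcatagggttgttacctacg
Clec9a: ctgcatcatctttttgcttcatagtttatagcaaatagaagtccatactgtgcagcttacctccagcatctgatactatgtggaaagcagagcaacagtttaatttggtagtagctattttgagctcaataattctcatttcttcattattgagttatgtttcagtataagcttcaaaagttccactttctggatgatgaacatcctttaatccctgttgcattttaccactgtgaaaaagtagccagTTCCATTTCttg
Snx22: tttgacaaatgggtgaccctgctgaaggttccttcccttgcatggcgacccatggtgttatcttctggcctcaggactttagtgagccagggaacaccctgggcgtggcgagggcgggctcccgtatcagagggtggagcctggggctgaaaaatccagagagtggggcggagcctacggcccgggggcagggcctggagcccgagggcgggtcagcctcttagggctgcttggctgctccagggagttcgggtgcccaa
Windows of 300 bases, from 250 before to 50 after the start, were searched on both strands for an AP-1 motif (TGANTCA), an IRF element (GAAANNGAA), an ETS-IRF composite (GGAANNGAA) and an ETS core (AGGAAGT). The IRF element and the composite can overlap. Windows were given for 7 of the 10 genes, with 2 for Snx22. Clec9a held an IRF element on the minus strand whose first base is at −2 from the start, and Xcr1 and Snx22 held no match to these letters. Among the other 4 genes, Ppt1 held an IRF element at −205 and Wdfy4 an ETS core at −147, while Naaa and Gcsam held none. Of 32851 RefSeq windows of this length, 7.81% held the AP-1 motif, 8.56% the IRF element, 8.24% the composite and 9.35% the ETS core.

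Wdfy4, a BEACH domain protein needed by cDC1 to cross-present antigen from cells, did not share the lower values of Xcr1 and Clec9a. It had 543.6, 542 and 585 normalized counts in the controls, against 501, 642 and 876 in midkine 3, 4 and 5. The values overlapped, and only midkine 5 lay far above the controls. limma gave a log2 fold change of 0.24 (95% interval −0.24 to 0.72; limma, adjusted p = 0.539), and 0.027 without midkine 5 (95% interval −0.22 to 0.27; limma, adjusted p = 0.907). The interval with all 6 libraries lies above the estimates for Xcr1, Clec9a and Snx22. Which of the unsorted cells made the Wdfy4 transcripts was not tested, and the same holds for Naaa, Ppt1 and Gcsam.

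None of the adhesion molecules Cadm1, Cd24a and Itgae passed the test in limma with all 6 libraries. Cadm1, an immunoglobulin-like adhesion protein that binds CRTAM on activated T cells, had 286, 289 and 205 normalized counts in the controls, against 331, 348 and 227 in midkine 3, 4 and 5. Midkine 3 and 4 were above all controls and midkine 5 was among them. The fitted difference was a log2 fold change of 0.21 (95% interval −0.31 to 0.72; limma, adjusted p = 0.618), and 0.40 without midkine 5 (limma, adjusted p = 0.0631).

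Cd24a, a glycosylated, lipid-anchored surface protein, had 690.3, 777 and 785 normalized counts in the controls, against 1122, 1158 and 679 in midkine 3, 4 and 5. The groups overlapped through midkine 5, which was below all controls. With all 6 libraries the log2 fold change was 0.36 (95% interval −0.15 to 0.86; limma, adjusted p = 0.389). Without midkine 5, Cd24a was higher with midkine, with a log2 fold change of 0.60 (95% interval 0.39 to 0.82; limma, adjusted p = 0.000561), and over the other settings the adjusted p ranged from 1.3e-05 to 0.653.

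Marker transcripts of other cells that make these adhesion molecules were summed in the same libraries. The sum of 11 measured B lineage genes (of 12 listed) was 1813 to 2436 normalized counts in the controls and 3745, 3386 and 1892 in midkine 3, 4 and 5. The sum of 9 mast cell, basophil and eosinophil genes (of 12 listed) was 1365 to 1588 in the controls and 3250, 3229 and 2178 in midkine 3, 4 and 5. Prg2 held 48.1 to 54.7% of it, and Fcer1a, Cma1 and Tpsb2 had no values. The other 8 summed to 651, 804 and 708 in the controls, against 1546, 1472 and 1002 in midkine 3, 4 and 5. Of the 9 genes, 5 lay above all controls, 0 below and 4 overlapped (15.5% and 15.3% of all genes lay above and below). Kit, named after its values were seen, overlapped, at 97.9 ± 12.8 without and 89.3 ± 13.2 with midkine. The sum of 17 neutrophil genes was 131030 to 146260 without and 186670 to 199100 with midkine. The sum of 7 erythroid genes (of 12 listed) was 1574 to 1710 in the controls and 1685, 1779 and 1435 in midkine 3, 4 and 5, but Tfrc, the transferrin receptor, which other dividing cells also make, held 87.6 to 95.1% of it. The other 6 erythroid genes summed to 76.9, 103 and 111 in the controls, against 161, 221 and 153 in midkine 3, 4 and 5, higher in each midkine library. None of the measured B lineage, mast cell, erythroid or neutrophil markers was at 0 in any library. The part of these cells in the values of Cd24a and Cadm1 was not tested.

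Itgae, the αE chain of the CD103 integrin that binds E-cadherin, was close to the limit of detection. It had 9.23, 0 and 6.90 normalized counts in the controls, against 2.90, 8.44 and 5.45 in midkine 3, 4 and 5, or 0 to 9 reads per library. The 95% interval of its log2 fold change, −1.53 to 2.56 around 0.52, covers both large decreases and large increases (limma, adjusted p = 0.760), and the estimate was −0.54 without control 2, the library with 0 reads. The sum of 8 T and NK cell genes (of 12 listed) was 1002 to 1326 in the controls and 1610, 1608 and 654 in midkine 3, 4 and 5. Il7r held 77.4 to 85.7% of that sum, and the other 7 genes summed to 188, 189 and 194 in the controls, against 253, 255 and 148 in midkine 3, 4 and 5. Among them Cd2 lay higher and Lck lower in each midkine library. The part of these cells in the values of Itgae was not tested. The partner chain of CD103, Itgb7, named after its values were seen, had 594, 673 and 693 in the controls, against 405, 337 and 1468 in midkine 3, 4 and 5, low in 2 midkine libraries and high in midkine 5.

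Naaa and Ppt1 encode lysosomal enzymes, and neither passed the test. Naaa, an acid amidase that breaks down fatty acid ethanolamides, had 509, 481 and 416 normalized counts in the controls, against 422, 316 and 217 in midkine 3, 4 and 5. Midkine 3 lay just within the control range and the other 2 below it. The log2 fold change was −0.60 (95% interval −1.16 to −0.047; limma, adjusted p = 0.228), and −0.35 without midkine 5 (limma, adjusted p = 0.0728). The last 300 bases of the longest annotated Naaa transcript match Ccdc167 over 262 bases with 92.7% identity. Ccdc167 had 97.4, 84.9 and 93.7 normalized counts in the controls, against 48.3, 59.1 and 57.2 in midkine 3, 4 and 5. How reads that fit both genes were counted is not given in the sources used here, so the value of Naaa is uncertain to that extent. No other gene matched the last 300 bases of the other 9 genes at 90% identity over 50 bases or more.

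Ppt1, which removes palmitate from proteins in lysosomes, varied little. It had 624, 632 and 632 normalized counts in the controls, against 600.3, 596 and 555 in midkine 3, 4 and 5. The groups did not overlap, yet the midkine mean was 92.8% of the control mean. Its log2 fold change was −0.11 (95% interval −0.41 to 0.20; limma, adjusted p = 0.662). Its 3′ end overlaps exons of Cap1 on the opposite strand, which had 1445 ± 45.1 normalized counts without midkine and 1709 ± 357 with it.

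Gcsam, a signalling adaptor first described in germinal centre B cells and part of the mouse cDC1 signature, had 36.9, 58.3 and 42.4 normalized counts in the controls, against 52.2, 44.3 and 29.0 in midkine 3, 4 and 5. The groups overlapped. The log2 fold change was −0.14 (95% interval −0.81 to 0.52; limma, adjusted p = 0.797), and its sign turned with the settings, to 0.093 without midkine 5 and 0.039 without control 2.

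**Figure D2:**
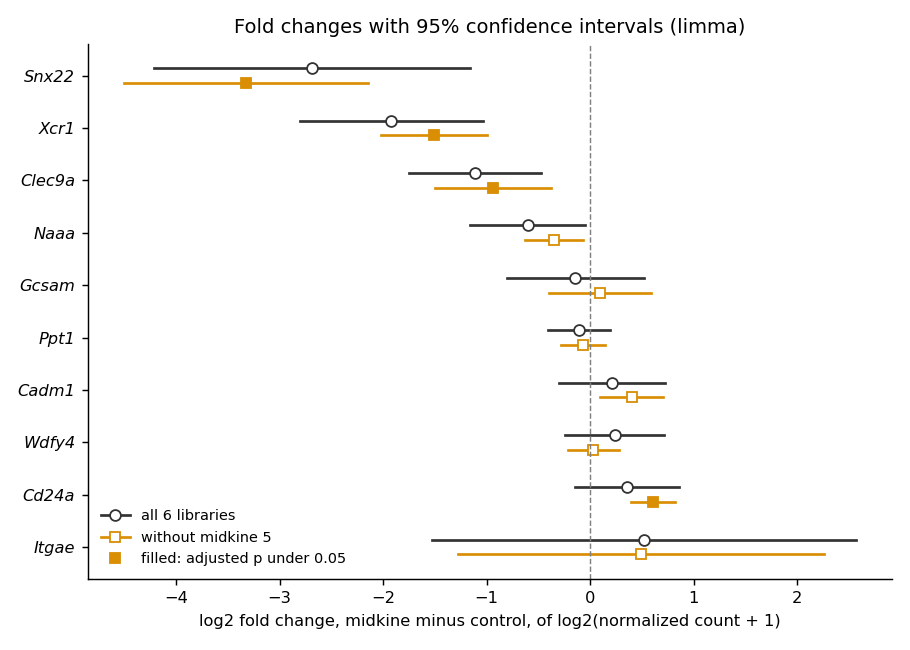
Log2 fold changes of the 10 genes (horizontal axis, midkine minus control, of log2(normalized count + 1)) with 95% confidence intervals from limma, for all 6 libraries (black circles) and without midkine 5 (orange squares), filled where the adjusted p is under 0.05. No circle is filled; the filled squares are Snx22, Xcr1, Clec9a and Cd24a.

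Over the 10 genes, the 3 midkine values lay below the 3 control values for 4 (Xcr1, Clec9a, Snx22 and Ppt1) and above them for 0, where 15.3% of the 13543 genes tested lay lower and 15.5% higher (30.8% either way). Snx22 passed the filter on low values only through the controls, with a mean of 16.2 against 2.46 with midkine. Its place in this and the following counts is not independent of that. The median log2 fold change of the 10 was −0.13, beside −0.0040 for all genes tested, with single genes between −2.69 and 0.52. With all 6 libraries limma called 0 of the 10, as it called 0% of all genes. Of the 10 genes 4 had an unadjusted p under 0.05, all lower (Xcr1, Clec9a, Snx22 and Naaa), where 9.3% of all genes were lower and 10.4% higher at that p (19.7% either way). edgeR called 0 of the 10, against 0.0738% of all genes (0.0295% lower and 0.0443% higher). DESeq2 called 1, Xcr1, against 5.92% of the genes it gave an adjusted p (1.95% lower and 3.97% higher), and gave none to Snx22 and Itgae. Without midkine 5, limma called Xcr1, Clec9a and Snx22 lower and Cd24a higher, 3 and 1 of 10, where 8.53% of all genes were called lower and 9.86% higher (18.4% in all). On whole reads without midkine 5, edgeR called the same 4 genes, where 7.88% of all genes were called lower and 10.5% higher. DESeq2 then called 2, Xcr1 lower and Cd24a higher, where 6.14% were called lower and 9.3% higher (15.4% in all).

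Most other genes of the cDC1 programme that separated the groups had lower values with midkine. Of 19 such genes set as a list, 18 had values and 17 passed the filter, with a median log2 fold change of −0.42. This list, like the other lists here, was chosen with earlier results of these data known. Counts set beside the shares of all genes thus describe the lists and do not test them. In 9 of the 17 the midkine values lay below all controls and in 2 above them, where 15.3% and 15.5% of all genes did so. With all 6 libraries limma and edgeR called 0 of them. DESeq2 called 3, all lower, against 1.95% lower and 3.97% higher of the genes it gave an adjusted p. At an unadjusted limma p under 0.05, 8 were lower and 3 higher (9.3% and 10.4% of all genes). Without midkine 5, limma called 9 of 18 lower and 3 higher (8.53% and 9.86% of all genes). Batf3, the transcription factor required for cDC1, had 46.2, 46.0 and 51.3 normalized counts in the controls, against 31.9, 31.7 and 29.95 in midkine 3, 4 and 5, clear of each other in the groups (log2 fold change −0.60; limma, adjusted p = 0.179, and 0.0804 without midkine 5). Irf8, which drives the commitment of progenitors to cDC1, had 5117 ± 298 and 3848 ± 437 (−0.42; limma, adjusted p = 0.195, and 0.00215 without midkine 5). Both factors were thus lower by less than Xcr1 on the log2 scale, a difference that was not tested. Id2, an inhibitor of E proteins that cDC1 express, went the other way in midkine 3 and 4 but overlapped through midkine 5, with 4330, 3819 and 4188 in the controls, against 5972, 7014 and 4291 in midkine 3, 4 and 5 (0.46; limma, adjusted p = 0.253). Without midkine 5, Id2 was called higher (0.66; limma, adjusted p = 0.000442).

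The 4 genes of that list with the smallest p were Sept3, Btla, Tlr12 and Fzd1. Sept3, a septin of the cytoskeleton, had 132.9 ± 14.4 normalized counts without midkine and 60.5 ± 4.92 with it (log2 fold change −1.12; limma, adjusted p = 0.0757), with midkine 5 (59.9) between the other 2. Btla, an inhibitory receptor, had 194 ± 28.2 and 114 ± 10.4. Tlr12, a receptor for profilin of parasites, had 147 ± 12.2 and 87.5 ± 20.4. Fzd1, a Wnt receptor, was the one of the 4 that was higher, at 2.69 ± 1.55 and 10.4 ± 1.56, a few reads per library. The other gene of the list above all controls was Rab7b, named after its values were seen and far more abundant. It had 1861, 1861 and 1559 in the controls, against 2430, 2164 and 2299 in midkine 3, 4 and 5. Its log2 fold change was 0.39 (limma, adjusted p = 0.206, and 0.0172 without midkine 5). Tlr11, the profilin receptor that works with Tlr12, was under the filter, with 13.3, 6.14 and 4.93 in the controls, against 1.93, 0 and 2.72 in midkine 3, 4 and 5.

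Genes of the cross-presentation machinery did not move as a block. All 37 genes of a list of export, transport and peptide-loading factors were tested, with a median log2 fold change of 0.058. In 6 the midkine values lay below all controls and in 7 above them, where 15.3% and 15.5% of all genes did so. With all 6 libraries limma and edgeR called 0. DESeq2 called 1 lower and 3 higher, against 1.95% and 3.97% of the genes it gave an adjusted p. At an unadjusted limma p under 0.05, 2 were lower and 6 higher (9.3% and 10.4% of all genes). Without midkine 5, limma called 2 lower and 7 higher (8.53% and 9.86% of all genes). Apol7c, an apolipoprotein that opens phagosomes in cDC1, had 197, 138 and 171 normalized counts in the controls, against 22.2, 36.9 and 84.4 in midkine 3, 4 and 5. It was the lowest of the 37 in fold change (log2 fold change −1.99, 95% interval −2.97 to −1.01; limma, adjusted p = 0.0881, and 3.47e-06 without midkine 5), and midkine 5 was the midkine library nearest to the controls.

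The other 3 with the smallest p lay higher in each midkine library. Rab11a, a GTPase of recycling endosomes, had 447 ± 36.6 normalized counts without midkine and 812 ± 157 with it. Cyba, the p22phox subunit of the NADPH oxidase, had 2703 ± 132 and 4000.2 ± 410.1, and Stx4a, a syntaxin of the plasma membrane, 633 ± 41.7 and 1026 ± 252. These factors act in macrophages and neutrophils too. Of 17 monocyte and macrophage genes, the midkine values lay above all controls in 9, below in 2 (Cx3cr1 and Ccr2, named after their values were seen) and overlapped in 6. Of 17 neutrophil genes, 10 lay above, 0 below and 7 overlapped. Of all genes, 15.5% lay above and 15.3% below. limma called 0 of either list with all 6 libraries. At an unadjusted limma p under 0.05, 10 and 7 were higher and 2 and 0 lower, where 10.4% of all genes were higher and 9.3% lower. edgeR called 0 of either list. DESeq2 called 9 higher and 1 lower of the macrophage and 5 higher of the neutrophil genes. It called 3.97% higher and 1.95% lower of the genes it gave an adjusted p. Without midkine 5, limma called 13 higher and 2 lower of the macrophage genes, and 11 higher and 0 lower of the neutrophil genes. Of all genes it then called 9.86% higher and 8.53% lower. The sum of the macrophage list was 75148 to 89919 without and 119760 to 135400 with midkine. Without Lyz2, a lysozyme that neutrophils also make and the most abundant of the list, it was 45968 to 60503 in the controls, against 81726, 86316 and 56685 in midkine 3, 4 and 5, so midkine 5 was then among the controls. The part of these cells in the values of Rab11a, Cyba and Stx4a was not tested. Rab43, a GTPase used by cDC1 in cross-presentation and named after its values were seen, had 404, 436 and 415 in the controls, against 326, 310.4 and 314 in midkine 3, 4 and 5 (log2 fold change −0.40; limma, adjusted p = 0.182).

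**Figure D3:**
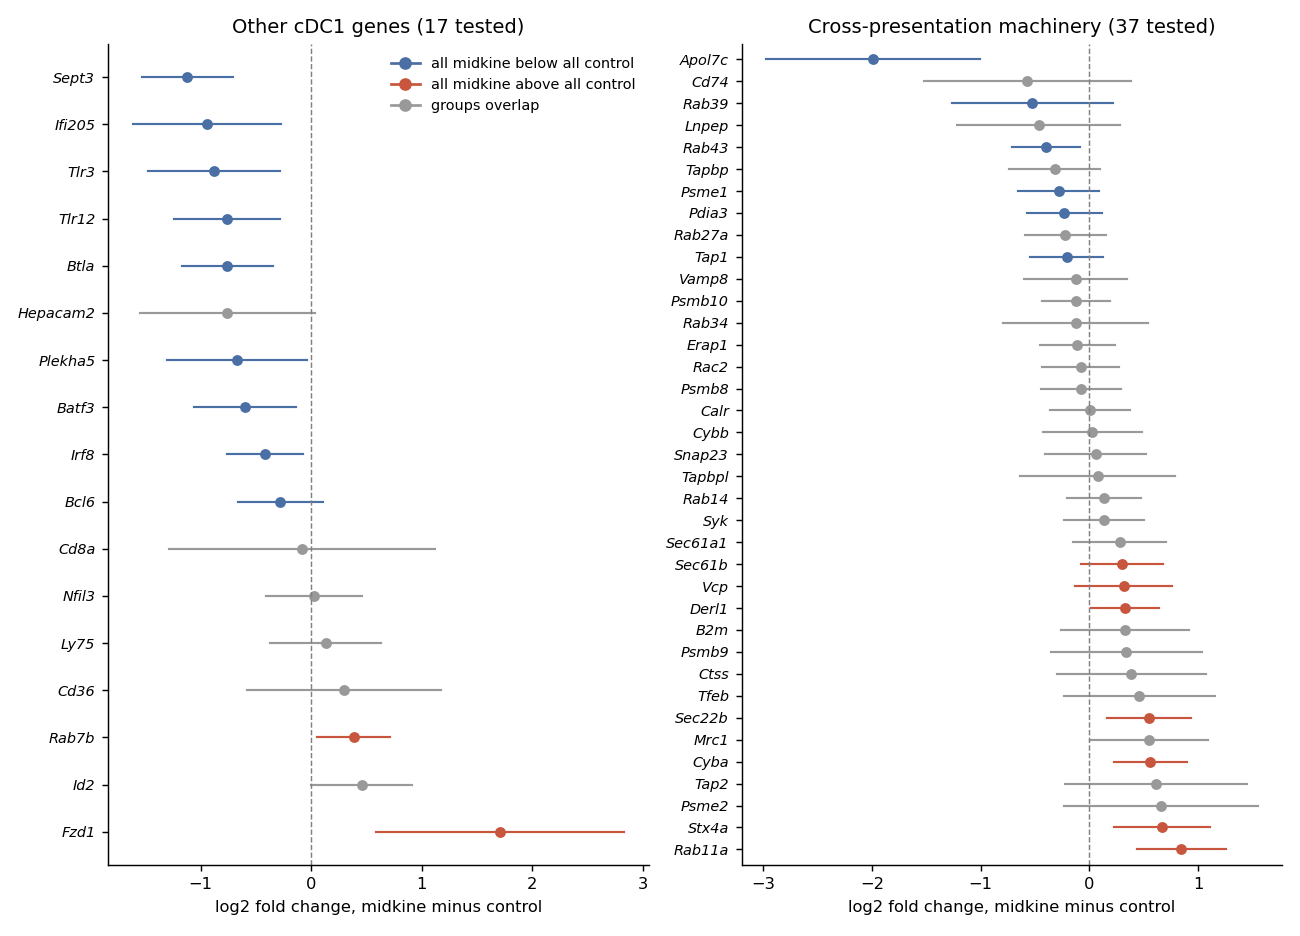
Log2 fold changes with 95% confidence intervals (horizontal axes, midkine minus control, all 6 libraries) of the other cDC1 genes (left, 17 tested) and of the cross-presentation machinery (right, 37 tested), in blue where all midkine values lie below all controls, red where they lie above and grey where the groups overlap. On the left 9 genes are blue and 2 red; on the right 6 are blue and 7 red, with Apol7c farthest to the left.

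Of 11 listed ligands and partners of the 10 proteins, 10 had values and 9 were tested, with a median log2 fold change of 0.10. In 2 the midkine values lay above all controls and in 0 below, where 15.5% and 15.3% of all genes did so. With all 6 libraries limma and edgeR called 0. DESeq2 called 1 higher and 0 lower, against 3.97% and 1.95% of the genes it gave an adjusted p. At an unadjusted limma p under 0.05, 2 were higher and 0 lower (10.4% and 9.3% of all genes). Without midkine 5, limma called 2 of 10 higher and 2 lower (9.86% and 8.53% of all genes). The lower ones were Cdh1 (−0.89; limma, adjusted p = 0.00127) and Itgb7 (−0.82; limma, adjusted p = 0.000157). Siglecg, a lectin that binds CD24, had 195 ± 20.8 normalized counts without midkine and 319 ± 77.4 with it (log2 fold change 0.69; limma, adjusted p = 0.148). Ppt2, a relative of Ppt1, had 173 ± 9.48 and 412 ± 179 (1.17; limma, adjusted p = 0.0982), highest in midkine 5 at 613. Syk, the kinase that CLEC9A signals through, had 1623 ± 170 and 1783 ± 219, and Cdh1, the E-cadherin bound by CD103, 361 ± 95.4 and 273 ± 144, both overlapping with all 6 libraries.

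Genes shared by all conventional DCs separated the groups in 1 direction only. In a list of 15, which shares Btla with the cDC1 list, the median log2 fold change was −0.34 and the midkine values lay below all controls in 6 and above in 0, where 15.3% and 15.5% of all genes did so. With all 6 libraries limma and edgeR called 0. DESeq2 called 5 lower and 0 higher, against 1.95% and 3.97% of the genes it gave an adjusted p. At an unadjusted limma p under 0.05, 5 were lower and 0 higher (9.3% and 10.4% of all genes). Without midkine 5, limma called 6 lower and 0 higher (8.53% and 9.86% of all genes). Kmo, an enzyme of tryptophan breakdown, had the smallest p of the list, with 677 ± 66.2 normalized counts without midkine and 309 ± 34.9 with it (log2 fold change −1.13; limma, adjusted p = 0.0639). Zbtb46, a transcription factor of conventional DCs, had 171, 139 and 149.9 normalized counts in the controls, against 80.2, 65.5 and 86.2 in midkine 3, 4 and 5. Flt3, the receptor for FLT3LG, had 259, 248 and 245 in the controls, against 149, 153 and 164 in midkine 3, 4 and 5. In midkine 5, Xcr1 and Clec9a were at their lowest while Zbtb46 and Flt3 were at their highest among the midkine libraries. This pattern did not hold for all genes of these kinds. Snx22, Irf8 and Tlr12 were at their highest in midkine 5, with Irf8 at 3447, 3783 and 4314 in midkine 3, 4 and 5. Ciita, a gene of the shared list named after its values were seen, was at its lowest there, at 672, 548 and 420. Relative to the control mean on the log2 scale, Xcr1 was −1.42, −1.60 and −2.74 in midkine 3, 4 and 5, and Clec9a −1.04, −0.84 and −1.46. The list median was −0.30, −0.33 and −0.32 in the same libraries.

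Lists of the other DC types also held more genes below all controls than above. Type 2 conventional DC genes had a median of 0.15 over 13 genes, or −0.16 without midkine 5. Midkine values lay below all controls in 5 and above in 1, Sirpa, which had the smallest p of that list. Sirpa had 2102, 2296 and 1847 normalized counts in the controls, against 3434, 4931 and 9965 in midkine 3, 4 and 5. Its log2 fold change was 1.41 (limma, adjusted p = 0.103, and 8.73e-05 without midkine 5). Sirpa held 34.5 to 74.2% of the list sum, and the other 12 genes summed to 3625, 3952 and 3502 in the controls, against 2802, 2559 and 3473. Which cells made the Sirpa transcripts was not tested. Plasmacytoid DC genes had −0.21 over 11, below in 5 and above in 1. Of all genes, 15.3% lay lower and 15.5% higher. At an unadjusted limma p under 0.05, 5 were lower and 1 higher in each list (9.3% and 10.4% of all genes). limma and edgeR called 0 of either list with all 6 libraries. DESeq2 called 2 lower and 1 higher of the type 2 genes, and 3 and 1 of the plasmacytoid genes. It called 1.95% lower and 3.97% higher of the genes it gave an adjusted p. Without midkine 5, limma called 5 lower and 1 higher of the type 2 genes, and 3 and 1 of the plasmacytoid genes (8.53% and 9.86% of all genes). Markers of other cells had medians of 0.64 (monocytes and macrophages, 17), 0.38 (neutrophils, 17), 0.48 (B lineage, 11), 1.04 (mast cells, basophils and eosinophils, 9), 0.48 (erythroid, 7), 0.11 (T and NK cells, 6), −0.23 (stem and progenitor cells, 10) and 0.24 (platelets and megakaryocytes, 8). Of the T and NK cell genes, Trac was at 0 in midkine 5 and Klrb1c in midkine 4.

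**Figure D4:**
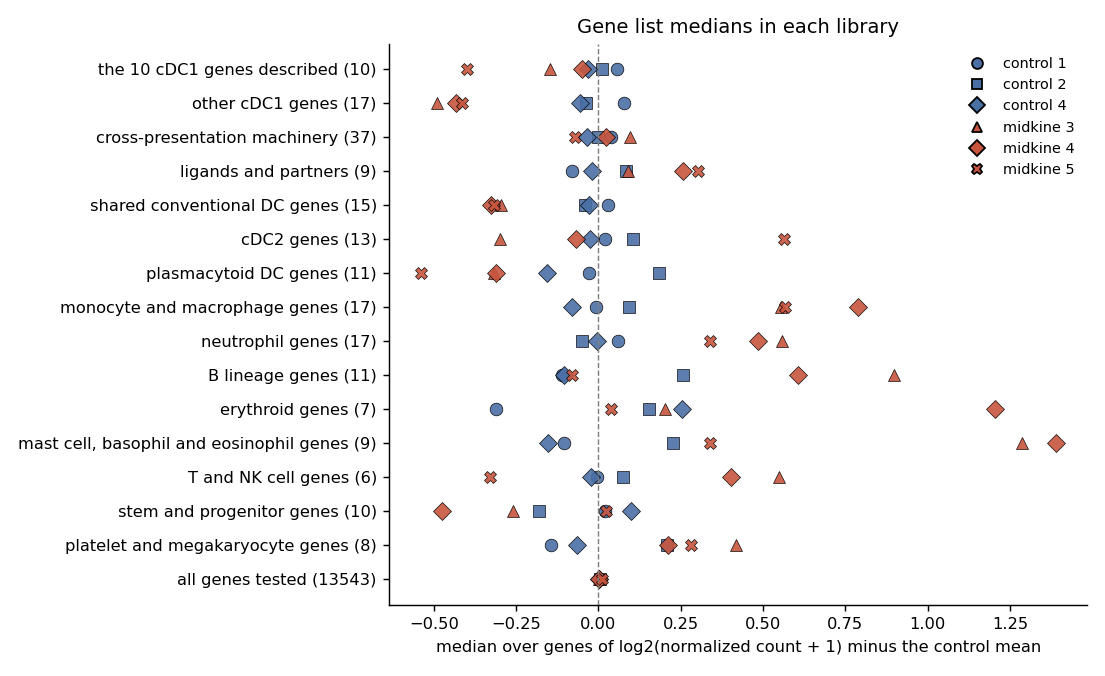
Median over the tested genes of each list (number in brackets) of log2(normalized count + 1) minus the control mean of the gene (horizontal axis), with a point per library, control in blue and midkine in red. The other cDC1 genes lie between −0.49 and −0.42 in the 3 midkine libraries, while the 10 genes described lie at −0.15, −0.050 and −0.40 in midkine 3, 4 and 5.

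Genes with the pattern most like Xcr1 and Clec9a were sought among 10123 others with a mean of at least 20, by the root mean square difference of log2 values after subtracting the control mean of each gene, over 6 libraries. For Xcr1 they were Hist1h2ae (0.303), Hyls1 (0.315) and Hist1h2bk (0.365). Hist1h2ae had 68.5 ± 5.93 normalized counts without midkine and 22.4 ± 7.58 with it. For Clec9a they were Prickle3 (0.139), Zfp260 (0.148) and Col1a2 (0.183). Prickle3 had 115 ± 10.7 and 54.0 ± 14.3.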

How the data were processed

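RNA was measured in 6 libraries with a 3′ end kit (QuantSeq FWD), per the labels' protocols. The deposited values are normalized counts, a signal of gene counts divided by the authors by 1 size factor per library. Alignment tools named in the submitters' processing notes are TopHat2 2.0.10 and Bowtie 1.0.0. FastQC 0.11.0, HTSeq, SAMtools 0.1.19 and DESeq2 are also named there, with GRCm38 (mm10) as the build. The sources used here do not give the annotation release, strand setting or gene filter. Dividing by the step of each library gave whole reads for 100% of values (tolerance 0.01), with size factors of 0.947 to 1.10. Other columns of per-sample values numbered 0.

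The main test was limma 3.58.1 (R 4.3.3, lmFit and eBayes with trend) on log2(normalized count + 1) for genes with a mean of at least 5, two-sided, with Benjamini-Hochberg adjustment over all 13543 genes tested and a threshold of 0.05. Recovered reads went into DESeq2 1.42.0 and edgeR 4.0.16 (TMM, quasi-likelihood) as alternatives. Other settings changed the pseudocount, the filter, the scaling, the trend, the weights and the libraries; edgeR and DESeq2 without midkine 5 were chosen after seeing the data. The tests were tried on simulated data first. Intervals of read ratios are exact (Clopper-Pearson, 95%) and floors are 3 reads; no molecular identifiers are named, so both cover counting error only. Of the symbols, 15353 matched exactly 1 GENCODE M21 gene (GRCm38), as did all 10 genes described. Starts and sequences before them came from RefSeq (GRCm38.p6). The genes described, the gene lists and the rule for named genes were chosen with earlier results of these data known. By that rule up to 4 genes per list with the smallest p were named, with Batf3, Irf8, Id2, Zbtb46 and Flt3, genes overlapping a described gene and the 3 genes most like Xcr1 and Clec9a; Ccdc167 was named for its sequence match. Figures were drawn with matplotlib 3.10.9.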

Additional observations from a re-analysis of the deposited data

How the results depend on the processing

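Xcr1, Clec9a, Snx22, Naaa and Ppt1 kept a negative and Wdfy4, Cadm1 and Cd24a a positive log2 fold change in all alternatives that gave a value (19 each, 18 for Snx22). Gcsam turned positive with array weights (0.080), without control 2 (0.039), without midkine 5 (0.093) and with edgeR (0.086) or DESeq2 (0.082) without midkine 5, and Itgae turned negative without control 2 (−0.54), ranging up to 0.95 when another library was left out. Of the 10 genes, limma called 0; DESeq2 called 1, array weights 6 (Xcr1, Clec9a, Snx22 and Naaa lower, Cadm1 and Cd24a higher), edgeR without midkine 5 called 4 and DESeq2 without it 2. Leaving out 1 library at a time gave 0 to 4 of the 10 and 0 to 2492 of all genes, the higher values without midkine 5. Of all genes, limma called 0, against 10 with a pseudocount of 5, 9 with no filter, 7 with TMM scaling, 12 with upper quartile scaling, 16 with quantile normalization, 10 with edgeR, 684 with DESeq2, 5076 with array weights, 2488 with edgeR without midkine 5 and 1737 with DESeq2 without it. The median log2 fold change of the 10 (−0.13) was 0.0024 with array weights and −0.32 to −0.023 when 1 library was left out. Array weights and leaving out midkine 5 give that library less or no weight; why it stands apart was not tested. With a filter at a mean of 20, Snx22 and Itgae were not tested. Itgae (0 to 9 reads per library) and Snx22 (0 to 17) are limited by depth. No paired analysis was possible because the groups share only replicate number 4.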
